A study of Mus musculus with 7 samples.

Results

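The extracellular matrix peptidases of the uterus and their inhibitors were followed here: the matrix metallopeptidases (MMPs), the ADAMTS peptidases and the tissue inhibitors of metallopeptidases (TIMPs). Members were taken by gene symbol, as every Mmp or Adamts gene with a number and Timp1 to Timp4, which gave 46 of the 23282 rows of the expression tables (23 MMPs, 19 ADAMTS and 4 TIMPs). The chemokine CXCL12 was infused into the cavity of one uterine horn of 6-week-old C57BL/6 female mice, and saline was infused into the opposite horn as the control. Uterine tissue was sequenced by QuantSeq, which reads the 3′ end of polyadenylated RNA, in 2 saline, 2 CXCL12 Day 3 and 3 CXCL12 Day 8 libraries. No day is given in the labels for the saline tissue and no cycle stage for any animal, and they do not say whether replicates came from separate animals, so the spread between libraries may be partly technical.

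MMPs are zinc-dependent endopeptidases that are made as inactive proforms and cleave collagens, laminins, fibronectin and other matrix proteins. The related ADAMTS enzymes carry thrombospondin repeats and cleave proteoglycans such as versican or trim the propeptides of fibrillar procollagens. TIMPs bind the active site of MMPs and block it, and Timp3 also inhibits ADAMTS enzymes. The balance of peptidases and TIMPs is known to shape the matrix during the oestrous cycle, implantation and decidualization.

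Library totals ranged from 6908790 to 12308982 reads, so that 3 counts, taken as the floor, correspond to 0.244 to 0.434 CPM (counts scaled to a common library size), by counting error alone. The uterine markers were present in every library (8 of 8 genes over 1 CPM in at least 1 library, summed level 882 to 1676 CPM). Saline replicate 1 stood apart, with a correlation of 0.876 to 0.899 to the other 6 libraries across genes. Day 8 replicate 1 was kept in the group of its label despite a table named for Day 3. It correlated more closely with the Day 3 libraries (0.950 and 0.953) than with the other Day 8 libraries (0.893 and 0.901). The 8 ovary markers summed to 961 CPM in saline replicate 2 and 3680 CPM in Day 8 replicate 2, against 5.29 to 149 CPM in the other 5 libraries. Fewer cells of a type and less RNA per cell cannot be told apart in such bulk tissue. Values without these libraries are given beside the results that rest on them.

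Of the 46 members, 33 had a mean of at least 1 CPM, 15 of at least 10 CPM and 5 of at least 100 CPM. The 5 highest were Timp2, Mmp14, Timp3, Adamts1 and Mmp2. The interstitial collagenases Mmp1a and Mmp1b had no count in any library, and Mmp13 reached at most 0.478 CPM. Enamelysin, Mmp20, also had no count, which allows a level of up to 0.244 to 0.434 CPM. Mmp21, Mmp25, Mmp27, Mmp28, Adamts18 and Adamts20 stayed under 1 CPM in every library. Levels of different genes can be set side by side because a 3′ read is counted once per transcript end, whatever the transcript length, although priming may differ between genes.

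Mmp14 and Mmp2 made up 57.2% to 65.4% of all MMP reads, and Timp2 and Timp3 made up 93.2% to 99.1% of all TIMP reads. The summed MMP level was 1111 and 501 CPM in the saline libraries, 435 and 441 CPM at Day 3, and 429, 616 and 645 CPM at Day 8. The summed ADAMTS level was 285 and 252 CPM in saline, 271 and 277 CPM at Day 3, and 236, 370 and 385 CPM at Day 8. The summed TIMP level was 2013 and 473 CPM in saline, 511 and 573 CPM at Day 3, and 452, 833 and 771 CPM at Day 8. For MMPs and TIMPs the highest library was saline replicate 1 by a wide margin, and its partner saline replicate 2 lay within the range of the CXCL12 libraries. The ratio of summed peptidase to summed TIMP level was 0.693 and 1.59 in saline, 1.38 and 1.25 at Day 3, and 1.47, 1.18 and 1.33 at Day 8. All 5 CXCL12 libraries thus lay between both saline libraries, and no direction could be given to the balance.

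**Figure D1:**
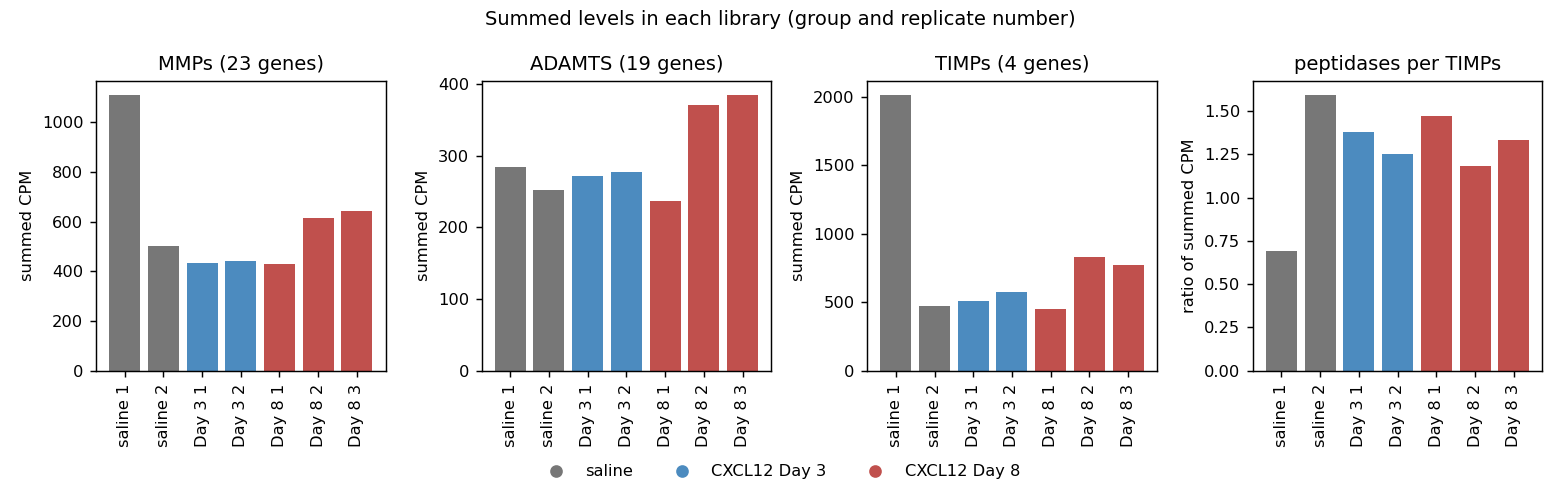
Summed level in CPM of the 23 MMPs, 19 ADAMTS and 4 TIMPs, and the ratio of summed peptidase to summed TIMP level, as 1 bar per library (grey saline, blue Day 3, red Day 8). Saline replicate 1 has the highest MMP sum (1111 CPM) and TIMP sum (2013 CPM) and the lowest ratio (0.693), and the Day 8 libraries 2 and 3 have the highest ADAMTS sums (370 and 385 CPM).

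A gene was called where it differed at least 2-fold and its unadjusted P was under 0.05, the cutoffs of the study, and the Benjamini-Hochberg adjusted p was held against 0.1. No member had an adjusted p under 0.1 in any of the 3 comparisons, although limma gave 10 at Day 3 against saline when saline replicate 2 was left out and replicate 1 stood alone. For Day 8 against saline, edgeR tested 36 members on counts and called 3, beside 2.94% of the 15388 genes tested. Adamts1 was higher (1 of 36 beside 1.53%), and Mmp11 and Adamts19 were lower (2 of 36 beside 1.42%). For Day 3 against saline, limma tested 34 members on quantile-normalized log2 values and called 3, beside 4.64% of 14800 genes. Mmp9, Mmp11 and Mmp12 were lower (beside 2.65%) and 0 of 34 were higher (beside 1.99%). For Day 8 against Day 3, limma called 3 of 34 beside 4.54% of genes. Mmp3 and Mmp15 were higher (beside 2.2%) and Adamts19 was lower (beside 2.34%). Any pair of these comparisons shares a group of libraries. Among all genes, edgeR found 658 (4.28%) at an unadjusted P under 0.05 and none at an adjusted p under 0.1 at Day 8 against saline, where DESeq2 gave 49 genes and no member at that adjusted p. The corresponding limma counts at an unadjusted P under 0.05 were 1110 genes (7.5%) at Day 3 against saline and 1049 (7.09%) at Day 8 against Day 3, with none at an adjusted p under 0.1. The common biological coefficient of variation, the typical relative spread of a gene between libraries of a group, was 42.2%.

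The median log2 fold change of the tested MMPs was -0.64 at Day 8 against saline and -0.73 at Day 3 against saline, beside -0.01 and 0.01 for all genes. For the ADAMTS it was -0.23 and -0.09, and for the TIMPs -0.62 and -0.96. Against Day 3, the Day 8 medians were 0.24 for MMPs, -0.01 for ADAMTS and 0.27 for TIMPs, beside 0.00 for all genes. For the peptidases, MMPs and ADAMTS together, the median was -0.29 at Day 8 and -0.26 at Day 3 against saline. The lower medians of the peptidases and of the TIMPs against saline rested on saline replicate 1. Without it, the Day 8 median was 0.37 for peptidases and -0.059 for TIMPs, and the Day 3 median was 0.040 for peptidases and 0.014 for TIMPs. A median of the MMPs alone was not taken without it. Among the MMPs with values in every library, several stayed lower at Day 3 than in saline whichever library was left out. These were Mmp2, Mmp3, Mmp9, Mmp11, Mmp12, Mmp14 and Mmp15, whereas Mmp8 and Mmp19 changed sign.

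**Figure D2:**
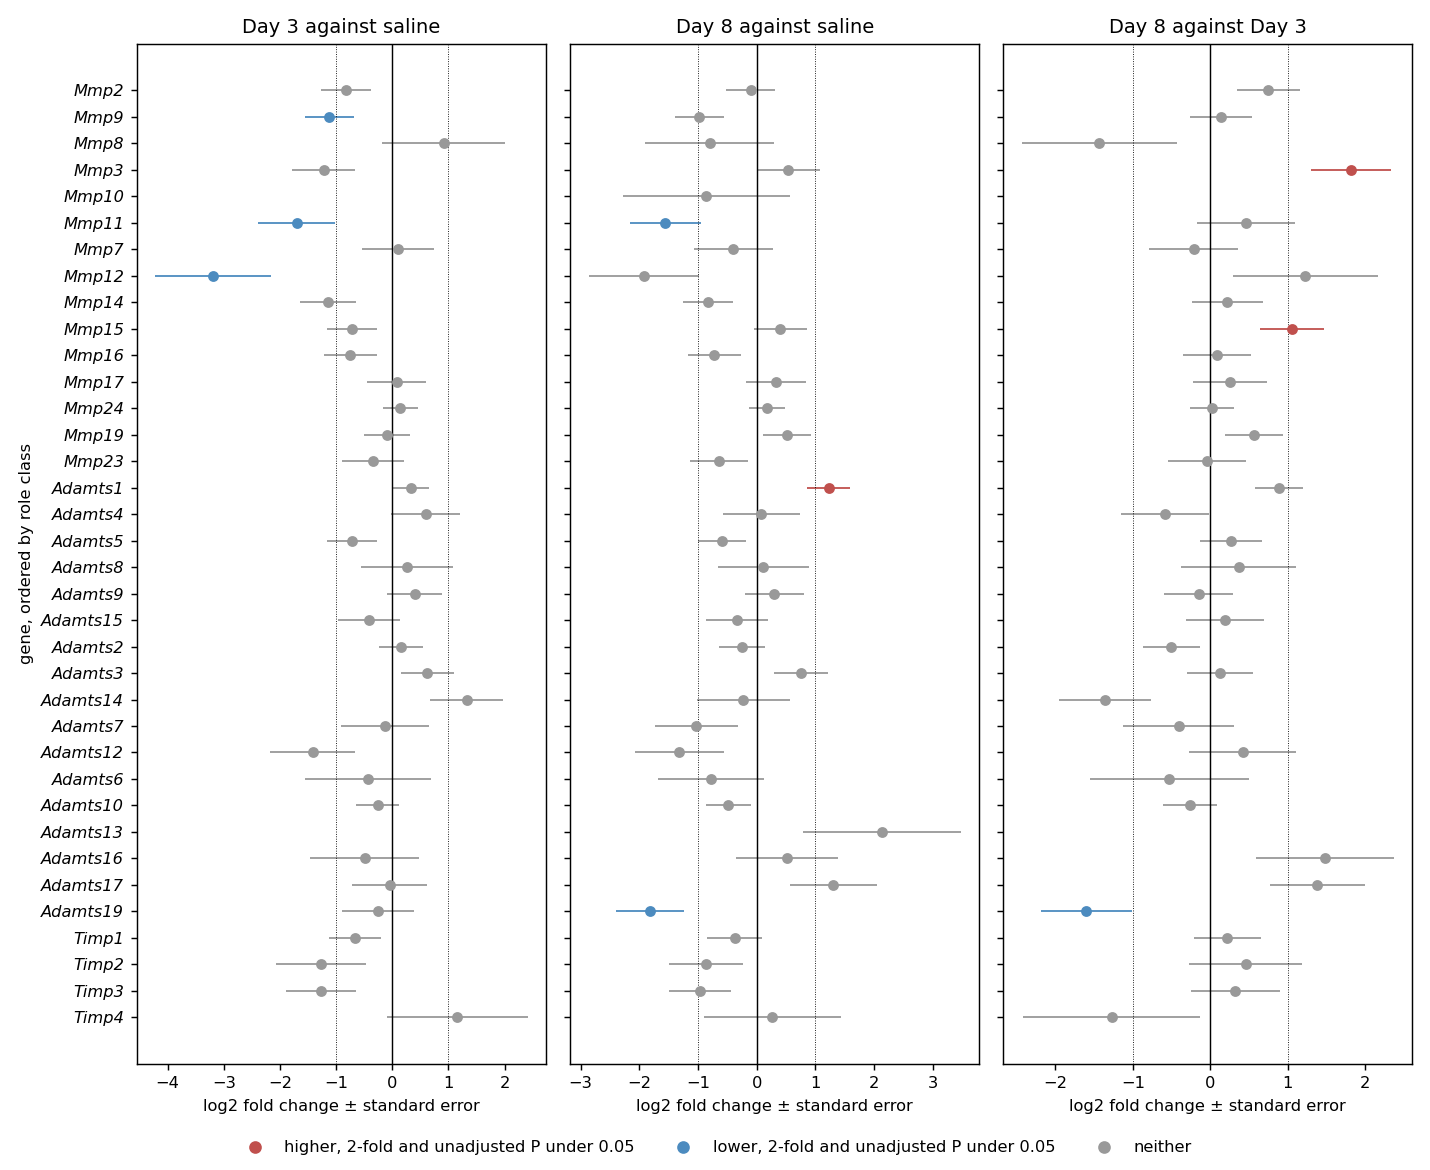
Log2 fold change of each tested member with its standard error in the 3 comparisons (rows are genes by role class, dotted lines mark a fold change of 2). Coloured points are called genes (at least 2-fold, unadjusted P under 0.05), which held for 3 members in each comparison, and Mmp3 at Day 8 against Day 3 is the largest rise so called (1.82).

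In the single pair of saline libraries, a 2-fold difference was more frequent among these genes than among all genes. Among the 33 members with a mean of at least 1 CPM, 18 (54.5%) differed at least 2-fold between saline replicates 1 and 2, and 15 of these were higher in replicate 1. Over all 14203 genes at that level, 20.2% differed as much, and more of them were lower in replicate 1 (1745) than higher (1125). The Day 3 pair differed at least 2-fold in 0 of the 33 members beside 1.7% of genes, and Day 8 replicates 2 and 3 did so in 4 members (12.1%) beside 5.68%. Day 8 replicate 1 differed as much from replicate 2 in 6 members (18.2%) beside 16.9% and from replicate 3 in 8 members (24.2%) beside 18.1%. Saline replicate 1 was the highest of all 7 libraries for 16 members (48.5%) beside 24.4% of genes. The 16 included Timp2, Timp3, Mmp2, Mmp9, Mmp11, Mmp14, Mmp23, Adamts5 and Adamts7. The summed uterine markers (1676 CPM against 882 to 1191 CPM elsewhere) and the 8 macrophage markers (611 CPM against 200 to 441 CPM elsewhere) were also highest in this library. Of the uterine markers, Pgr, Hoxa10 and Hoxd10 were highest there, whereas Hoxa11, Esr1, Wnt7a, Foxa2 and Hand2 were not. Esr1 was at 258 CPM there and at 368 CPM in Day 8 replicate 1. The macrophage markers were highest there except Adgre1 and Mrc1. The part of these markers in the result was not tested.

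**Figure D3:**
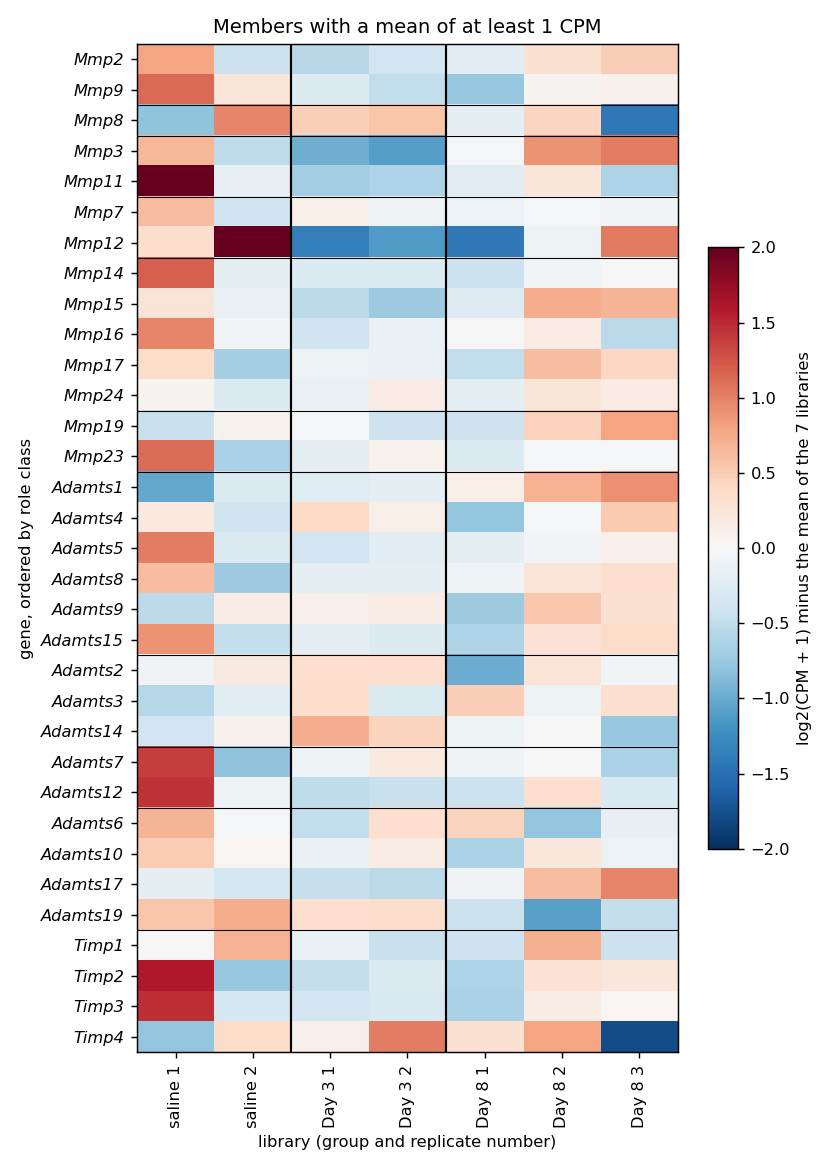
Level of the 33 members with a mean of at least 1 CPM in each of the 7 libraries, as log2(CPM + 1) minus the gene's mean, with colours limited to 2 in either direction and rows ordered by role class. Saline replicate 1 is the highest library for 16 of 33 genes, and Day 8 replicates 2 and 3 hold the highest level of Adamts1, Adamts17, Mmp3, Mmp15 and Mmp19.

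Among the inhibitors, Timp2, which blocks most MMPs and also assists Mmp14 in activating proMMP2, was the most abundant. The gene lies at chr11:118301069-118355740 on the minus strand (GRCm38, as all gene positions here). Its level was 1385 and 269 CPM in saline, 326 and 378 CPM at Day 3, and 297, 556 and 534 CPM at Day 8. Saline replicate 1 was the highest and saline replicate 2 the lowest of the 7 libraries, so the groups overlapped. The Day 8 log2 fold change against saline was -0.86 ± 0.63 (SE, edgeR, not called), and it was 0.76 without saline replicate 1. Timp3 (chr10:86300372-86349506, plus strand, inside the opposite-strand gene Syn3), which binds to the matrix and inhibits ADAMTS enzymes as well as MMPs, had 610 and 171 CPM in saline, 166 and 176 CPM at Day 3, and 139, 243 and 225 CPM at Day 8. Here too only saline replicate 1 lay far from the rest, and the Day 8 log2 fold change of -0.97 ± 0.53 (edgeR, not called) became 0.22 without that library. The ratio of Timp2 to Timp3 stayed between 1.57 and 2.37 over the 7 libraries.

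Timp1, the inducible inhibitor of the family, had 17.2 and 28.3 CPM in saline, 15.3 and 12.3 CPM at Day 3, and 12.6, 28.5 and 12.3 CPM at Day 8. The highest values were those of saline replicate 2 and Day 8 replicate 2, and the other 5 libraries lay between 12.3 and 17.2 CPM. The same pair of libraries held the highest ovary markers (961 and 3680 CPM), led by Hsd3b1 at 703 and 2410 CPM, whereas at Day 3 the 8 genes summed to 5.29 and 7.39 CPM and Cyp11a1 was at 0.625 CPM and 0. The Day 8 log2 fold change against saline was -0.38 ± 0.47 (edgeR), and it was 0.03 without saline replicate 2 and -0.88 without Day 8 replicate 2. The part of these markers in the Timp1 level was not tested. Timp4 was low, at 1.21 and 3.92 CPM in saline, 3.08 and 6.77 CPM at Day 3, and 3.72, 5.60 and 0.104 CPM at Day 8, and its groups overlapped. Neither gene was called in any comparison.

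Of the gelatinases, Mmp2, which is made mainly by stromal cells, had 195 and 82.8 CPM in saline, 75.6 and 86.0 CPM at Day 3, and 97.2, 138 and 157 CPM at Day 8. All Day 8 libraries lay above both Day 3 libraries, by a log2 fold change of 0.75 ± 0.41 (limma, not called), and the saline libraries overlapped with both groups. Mmp14, the membrane-anchored activator of proMMP2, had 532 and 204 CPM in saline, 193 and 193 CPM at Day 3, and 173, 223 and 234 CPM at Day 8. Apart from saline replicate 1, its level ranged from 173 to 234 CPM, and its Day 8 log2 fold change against saline was -0.83 ± 0.42 with that library (not called) and 0.03 without it. The ratio of Mmp14 to Mmp2 was 2.73 and 2.46 in saline, 2.55 and 2.24 at Day 3, and 1.78, 1.61 and 1.49 at Day 8. All 3 Day 8 values were below those of the other 4 libraries, including saline replicate 1, and this difference was not tested. Of the other gene ratios formed, Adamts1 to Timp3 also separated Day 8 (0.752 to 0.945 against 0.0896 to 0.570). The ratios of Mmp2 to Timp2, Mmp14 to Timp2, Mmp9 to Timp1 and Timp2 to Timp3 overlapped. How often gene pairs in general separate in this way was not counted.

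Mmp9, the gelatinase of neutrophils, macrophages and trophoblast, had 36.2 and 19.1 CPM in saline, 13.0 and 11 CPM at Day 3, and 9.07, 16.6 and 16.9 CPM at Day 8. Both saline libraries lay above all 5 CXCL12 libraries, although saline replicate 2 did so by little. Mmp9 fell by 1.12 ± 0.44 on the log2 scale at Day 3 (limma, adjusted p = 0.618), and the Day 8 difference was -0.98 ± 0.42 (edgeR, not called). Without saline replicate 1 the Day 3 difference was -0.62 and was not called, and it also missed the threshold without Day 3 replicate 1 (-1.24) or 2 (-0.996). The 7 neutrophil markers summed to 135 and 207 CPM in saline, 149 and 139 CPM at Day 3, and 111, 146 and 178 CPM at Day 8, with 5 of 7 over 1 CPM in at least 1 library. Retnlg carried much of this sum and was higher at Day 3, whereas S100a8 was at 20.9 and 70.6 CPM in saline and 5.66 and 4.37 CPM at Day 3, and S100a9, Cxcr2 and Il1b were likewise lower. The macrophage markers summed to 611 and 380 CPM in saline and 283 and 229 CPM at Day 3, with Cd68 at 66.0 and 38.6 CPM and then 16.9 and 16.7 CPM. Mrc1 overlapped, at 61.0 and 77.2 CPM in saline and 63.4 and 44.4 CPM at Day 3. Adgre1 was at 21.7 and 36.6 CPM and then 20.8 and 15.8 CPM. The part of these markers in the Mmp9 result was not tested. Non-overlapping libraries were common in groups of this size. Between Day 3 and saline the libraries did not overlap for 14 of 34 members beside 48.9% of genes, with 11 lower beside 23.4% and 3 higher beside 25.5%. Between Day 8 and saline they did not overlap for 6 of 36 members beside 19.2%, with 2 lower beside 9.42% and 4 higher beside 9.74%.

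The stromelysins differed among themselves. Mmp3, stromelysin-1, which cleaves proteoglycans, laminin and fibronectin and activates other proMMPs, had 12.1 and 4.78 CPM in saline, 3.19 and 2.81 CPM at Day 3, and 7.09, 14.4 and 15.7 CPM at Day 8. All 3 Day 8 libraries were above both Day 3 libraries, and the saline libraries overlapped with Day 8. Mmp3 rose at Day 8 against Day 3 by 1.82 ± 0.52 on the log2 scale (limma, adjusted p = 0.675), and the call held in all 11 alternatives, with values from 1.61 to 2.13. Without Day 8 replicate 1 the rise was 2.13. Against saline the Day 8 difference was 0.54 ± 0.54 (edgeR) and the Day 3 difference was -1.22 ± 0.56 (limma), and neither was called. Between Day 8 and Day 3, 14 of 34 members did not overlap beside 32.9% of genes, with 10 higher beside 16.2% and 4 lower beside 16.6%.

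Mmp11, stromelysin-3 (chr10:75923222-75936496, minus strand), which is known from remodelling stroma, had 145 and 30.1 CPM in saline, 20.5 and 21.5 CPM at Day 3, and 28.8, 40.1 and 21.8 CPM at Day 8. Saline replicate 1 was far above all other libraries, and saline replicate 2 lay within the Day 8 range. The gene was called lower at Day 8 (-1.56 ± 0.61, edgeR adjusted p = 0.956) and at Day 3 (-1.70 ± 0.69, limma adjusted p = 0.618). Without saline replicate 1 the differences were -0.02 and -0.48 and neither was called. The Day 8 call was also lost without Day 8 replicate 1 (-1.53) or 3 (-1.37), and the Day 3 call without either Day 3 library (-1.67 and -1.72). Exons of Mmp11 overlap those of Chchd10 on the opposite strand, and the use of strand in the counting is not given in the sources used here. Chchd10 was also highest in saline replicate 1, at 144 CPM against 39.4 to 91.6 CPM elsewhere. The ratio of Mmp11 to Chchd10 ranged from 0.306 to 1.01, and the part of shared reads in the Mmp11 calls was not tested. Mmp10, stromelysin-2, stayed at or under 1.69 CPM, with both Day 3 libraries under the floor.

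Mmp12, the macrophage elastase (chr9:7344381-7369499, plus strand), had the widest range within a group among the members over 5 CPM. Its level was 6.4 and 35.1 CPM in saline, 1.24 and 1.67 CPM at Day 3, and 1.16, 4.43 and 11 CPM at Day 8. Both saline libraries were above the Day 3 libraries, and the highest value belonged to saline replicate 2, unlike most members. Mmp12 fell by 3.19 ± 1.03 on the log2 scale at Day 3 against saline (limma, adjusted p = 0.618), while the call was lost without saline replicate 2 (-2.0) or without Day 3 replicate 1 (-3.0). The Day 8 difference from saline was -1.93 ± 0.94 (edgeR, not called), and it was called without saline replicate 1 (-2.68) or without Day 8 replicate 3 (-2.90). The 8 macrophage markers summed to 611 and 380 CPM in saline, 283 and 229 CPM at Day 3, and 200, 426 and 441 CPM at Day 8, with all 8 over 1 CPM in at least 1 library, and their part in the Mmp12 level was not tested. Mmp7, matrilysin, a small MMP of epithelium, stayed between 1.34 and 3.75 CPM. Mmp8, the collagenase of neutrophils and the one collagenase with a mean over 1 CPM, had 0.846 and 5.36 CPM in saline, 3.49 and 3.75 CPM at Day 3, and 1.86, 3.35 and 0.207 CPM at Day 8, with overlapping groups.

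The MMP genes of a cluster of 10 lie side by side on chromosome 9 (GRCm38, 7272514 to 7699585), among them Mmp3, Mmp7, Mmp8, Mmp10 and Mmp12. Their promoters are shown because most of these genes share a sequence feature, while their mean levels ranged from 0 to 8.72 CPM. The letters TGAGTCA, on either strand the AP-1 site known from MMP promoters, were found within 250 bases before and 50 after a start in 7 of these 10 genes and in 0 of the 22 other members with a promoter entry, beside 5.2% of 32851 promoters (RefSeq, GRCm38.p6, 32 member genes matched). TATAAA was found in 9 of 10 and in 2 of 22 (13.6% of all promoters), and GGGCGG in 0 of 10 and in 18 of 22 (35.7%). A member gene was counted if any of its starts held the letters, whereas the shares of all promoters count each start singly, so the 2 are not strictly alike. A match is a description of the letters alone. The 100 bases before a start are shown for the 4 holders of TGAGTCA with over 1 CPM in at least 1 library. Mmp8, also detected, Mmp20 and Mmp27 did not hold it. Mmp12 and Mmp7 each have a further RefSeq start, at chr9:7344297-7344396 and chr9:7692241-7692340 for the bases before it, with no TGAGTCA in those 100 bases. The printed stretches lie at chr9:7445722-7445821, chr9:7502242-7502341, chr9:7347274-7347373 (a start inside the gene) and chr9:7691990-7692089, all on the plus strand and written 5′ to 3′, with TGAGTCA and TATAAA in capitals.
Mmp3: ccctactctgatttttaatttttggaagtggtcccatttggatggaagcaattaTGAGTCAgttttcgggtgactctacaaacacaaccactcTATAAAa
Mmp10: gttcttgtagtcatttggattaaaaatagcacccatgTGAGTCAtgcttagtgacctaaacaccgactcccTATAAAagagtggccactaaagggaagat
Mmp12: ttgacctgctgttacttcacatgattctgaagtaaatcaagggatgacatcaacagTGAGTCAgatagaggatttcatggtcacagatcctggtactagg
Mmp7: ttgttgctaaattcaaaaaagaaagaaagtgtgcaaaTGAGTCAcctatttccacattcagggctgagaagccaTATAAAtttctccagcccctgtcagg
The first base of TGAGTCA lay at -46, -63, -44 and -63 in that order. At these chosen starts the letters are the same. Mmp3 and Mmp12 had means of 8.58 and 8.72 CPM, Mmp7 had 2.17 CPM, and Mmp10 was near the floor. The Day 3 log2 fold change against saline was -1.22 for Mmp3, -3.19 for Mmp12 (called) and 0.10 for Mmp7 (limma). From Day 3 to Day 8 it was 1.82 for Mmp3 (called), 1.23 for Mmp12 and -0.22 for Mmp7. Mmp3 and Mmp12 thus had the same direction in both comparisons, which share the Day 3 libraries. At Day 8 against saline their directions differed (0.54 and -1.93, edgeR, neither called). The other 3 holders, Mmp13, Mmp1a and Mmp1b, were at or near 0.

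**Figure D4:**
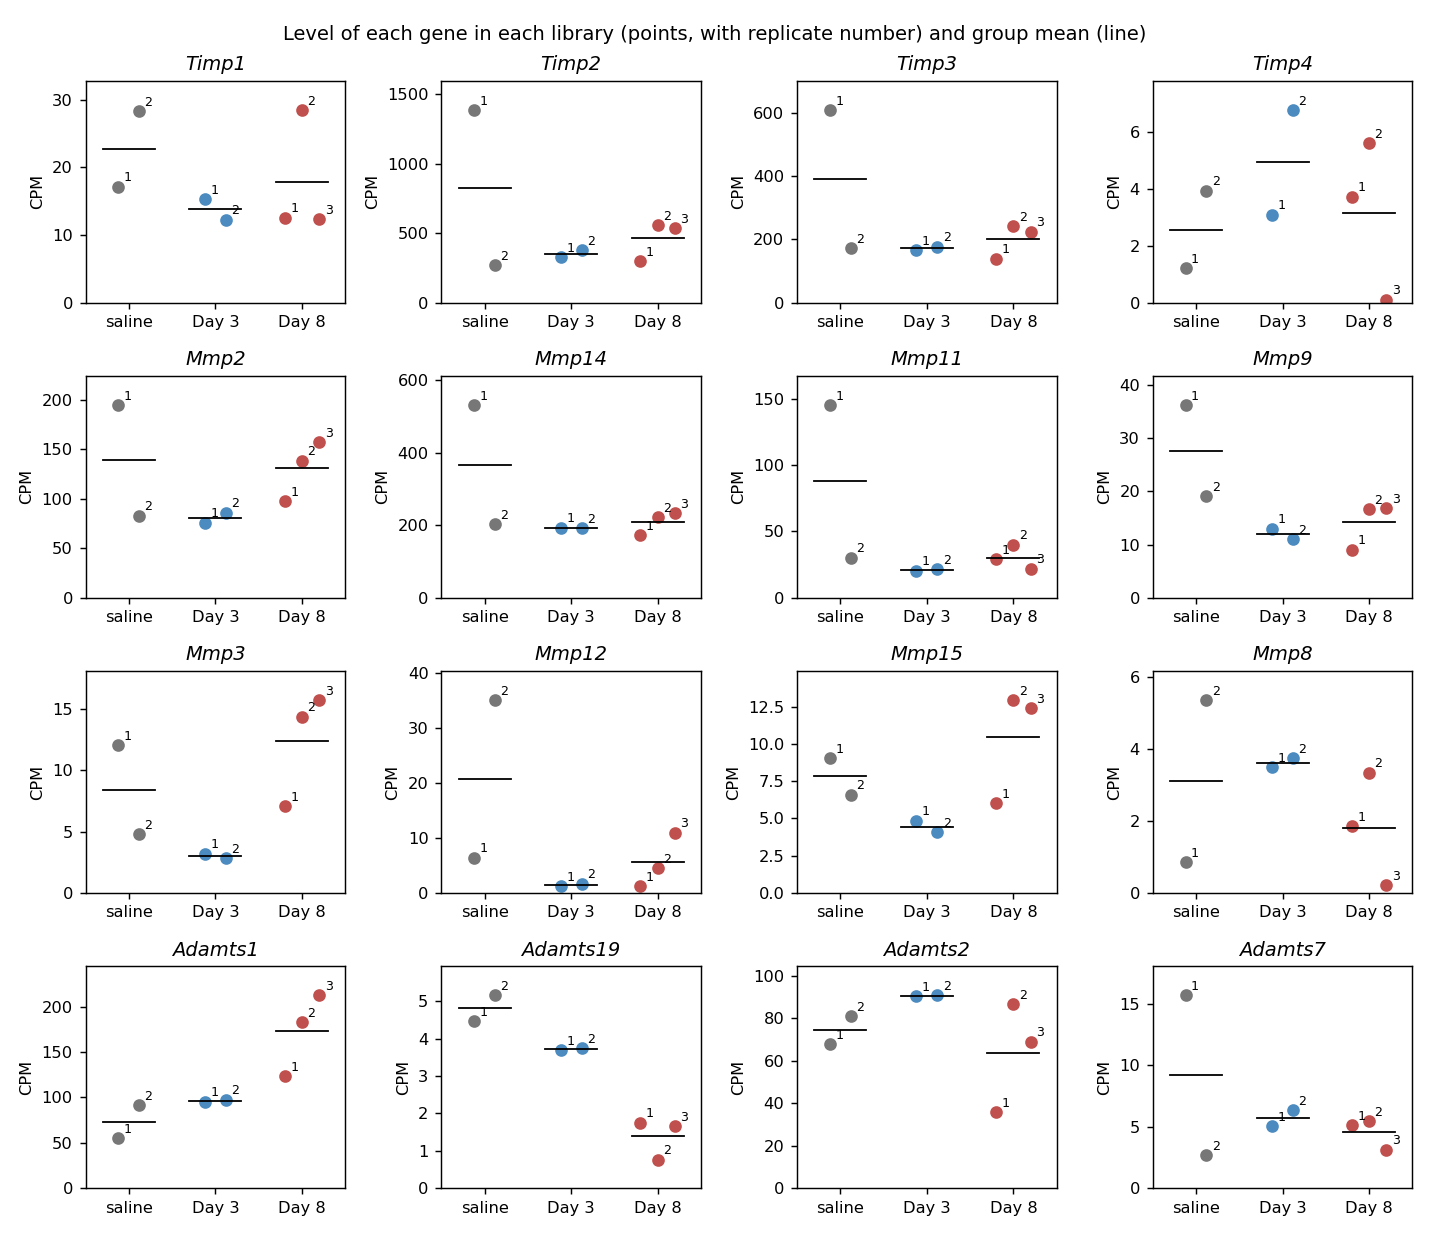
CPM of 16 members in each library (points, labelled with the replicate number) with the group mean as a line, each panel on its own axis from 0. Saline replicate 1 stands above the rest for Timp2, Timp3, Mmp14 and Mmp11, Mmp12 is highest in saline replicate 2 (35.1 CPM), Adamts1 has its 3 highest values at Day 8 (123, 182 and 212 CPM), and Adamts19 its 3 lowest.

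Of the other membrane-type MMPs, Mmp15 had 9.06 and 6.60 CPM in saline, 4.84 and 4.06 CPM at Day 3, and 6.05, 13.0 and 12.4 CPM at Day 8. The Day 8 libraries were all above the Day 3 libraries, and replicate 1 lay closest to them. Mmp15 rose by 1.05 ± 0.41 on the log2 scale at Day 8 against Day 3 (limma, adjusted p = 0.695). The call was lost in each fit without Day 3 replicate 1, Day 3 replicate 2, Day 8 replicate 2 or Day 8 replicate 3, where the rise was 0.90 to 1.17, and it was 1.36 without Day 8 replicate 1. Mmp16, Mmp17 and Mmp24 had means of 9.47, 9.86 and 16.4 CPM and were not called. Reads of Mmp24 could not be told from those of BC029722, a gene on the opposite strand with shared exons, as the ratio of both levels was 0.917 to 1.01 in every library. The same holds for Mmp19, a broadly expressed MMP, whose level was 1.07 to 1.10 times that of the overlapping Tmem198b in all 7 libraries. What was counted as Mmp19 came to 42.5 and 61.1 CPM in saline, 56.6 and 43.7 CPM at Day 3, and 43.5, 80.5 and 102 CPM at Day 8, and may belong to either gene.

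Adamts1 (chr16:85793827-85803113, minus strand) was the most abundant ADAMTS. It cleaves versican and aggrecan, and in the ovary it is known as a gene induced around ovulation. Its level was 54.6 and 91.0 CPM in saline, 94.8 and 97.4 CPM at Day 3, and 123, 182 and 212 CPM at Day 8, which gives means of 72.8 ± 25.7, 96.1 ± 1.82 and 173 ± 45.3 CPM (SD, n = 2, 2 and 3). The 3 groups did not overlap with each other, but both Day 3 libraries lay close to saline replicate 2. Adamts1 rose at Day 8 against saline by 1.23 ± 0.37 on the log2 scale (edgeR, adjusted p = 0.956). The difference of Day 8 from Day 3 was 0.89 ± 0.30, short of a fold change of 2, and that of Day 3 from saline was 0.33 ± 0.33 (limma, neither called). Without saline replicate 1 the Day 8 difference against saline was 0.91 and not called, and without Day 8 replicate 1 it was 1.41. Adamts1 took 19.2% and 36.1% of all ADAMTS reads in saline, 35.0% and 35.1% at Day 3, and 52.3%, 49.3% and 55.2% at Day 8.

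The promoter of Adamts1, the member that rose against saline, held none of the AP-1 letters in that window. The 250 bases before its start, at chr16:85803114-85803363 on the minus strand, hold GGGCGG 3 times, from -147, -76 and -25, and TATAAA from -32, all in capitals.
Adamts1: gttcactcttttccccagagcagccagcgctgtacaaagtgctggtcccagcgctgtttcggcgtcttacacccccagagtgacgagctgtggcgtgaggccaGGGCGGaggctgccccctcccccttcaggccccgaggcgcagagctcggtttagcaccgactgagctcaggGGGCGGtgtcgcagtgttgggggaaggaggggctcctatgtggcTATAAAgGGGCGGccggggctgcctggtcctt
Besides Adamts1, TATAAA was found outside the chromosome 9 cluster only in Mmp21 among the members with an entry.

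The highest levels of Adamts1, Mmp3 and Mmp15 were in Day 8 replicates 2 and 3, and so were those of the 8 progesterone-induced uterine genes, which summed to 16.8 and 65.0 CPM in saline, 16.5 and 17.9 CPM at Day 3, and 27, 227 and 452 CPM at Day 8. All 8 were over 1 CPM in at least 1 library, with Cyp26a1 at 69.1 and 168 CPM and Fst at 87.2 and 125 CPM in those Day 8 libraries. The 8 oestrogen-induced genes had their lowest sums in the same libraries (287 and 426 CPM against 764 to 1441 CPM elsewhere), which rested mainly on Sprr2f (3.35 and 9.12 CPM against 115 CPM or more) and Lcn2 (7.69 and 8.49 CPM against 94.6 CPM or more). Of the other genes of that list, Clca3a1 and Wfdc3 were highest in these libraries, and Sprr2a1 was at 0 in all 7. The part of these genes in the results was not tested.

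Of the other proteoglycan-cleaving ADAMTS, Adamts5, the main aggrecanase of cartilage, had 69.6 CPM in saline replicate 1 and 25.4 to 36.1 CPM in the other 6 libraries. Adamts9 and Adamts15 had means of 9.39 and 13.6 CPM, Adamts4 3.54 CPM and Adamts8 2.05 CPM, and none of the 5 was called. The procollagen N-propeptidases trim the propeptide from fibrillar procollagens before fibrils form. Adamts2 had 67.9 and 81.1 CPM in saline, 90.5 and 90.9 CPM at Day 3, and 35.6, 86.6 and 69.0 CPM at Day 8. Day 3 was above both other groups throughout, by margins within the spread of the Day 8 libraries (Day 8 against Day 3 -0.50 ± 0.36, limma, not called). Adamts14, of the same class, had 0.967 and 1.72 CPM in saline, 3.28 and 2.5 CPM at Day 3, and 1.4, 1.59 and 0.518 CPM at Day 8, so that Day 3 was again highest. Its Day 3 difference from saline was 1.33 ± 0.65 (limma, not called), and Adamts3 had a mean of 5.37 CPM with no call.

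Adamts19, a member whose substrate is little known, had 4.47 and 5.17 CPM in saline, 3.70 and 3.75 CPM at Day 3, and 1.74, 0.753 and 1.66 CPM at Day 8. The 3 groups did not overlap, in the reverse order of Adamts1. Adamts19 fell by 1.82 ± 0.59 on the log2 scale at Day 8 against saline (edgeR, adjusted p = 0.956), and its difference from Day 3 was -1.60 ± 0.59 (limma, adjusted p = 0.695), also called. The first call was lost without saline replicate 2 (-1.71) or Day 8 replicate 2 (-1.51), and the second without either Day 3 library (-1.61 and -1.58) or without Day 8 replicate 2 (-1.07). Without saline replicate 1 the Day 8 fall against saline was still called (-1.92), and without Day 8 replicate 1 both falls were called (-2.03 against saline and -1.92 against Day 3).

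The COMP-cleaving ADAMTS were also highest in saline replicate 1. Adamts7, which cleaves cartilage oligomeric matrix protein, had 15.7 and 2.68 CPM in saline, 5.04 and 6.35 CPM at Day 3, and 5.12, 5.44 and 3.11 CPM at Day 8, and the highest and the lowest of the 7 values were both saline. Exons of Adamts7 overlap those of Tbc1d2b on the opposite strand, which was also highest in saline replicate 1 (42.8 CPM against 18.1 to 24.8 CPM elsewhere). The part of shared reads was not tested. Adamts12 had 6.89 CPM in saline replicate 1 and 1.03 to 2.68 CPM elsewhere. Adamts10, a fibrillin-binding member, had 17.5 and 12.3 CPM in saline, 10.8 and 13.5 CPM at Day 3, and 7.44, 14.1 and 11 CPM at Day 8. None of these 3 was called.

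Of the other genes of the pathway, 37 were tested (plasminogen activators and proprotein convertases, other inhibitors, ADAMTS-like proteins, TIMP-sensitive sheddases and matrix substrates). At Day 8 against saline, none was called, and their median was -0.21. The 11 matrix substrates tested had a median of -0.83, with 7 below 0 and 4 above, beside -0.01 for all genes. Their median was not taken without saline replicate 1. Without that library the difference of Fbn1 moved from -0.83 to -0.30, and that of Spp1 from -1.56 to -2.43 (edgeR). Eln, elastin, had 61.7 CPM in both saline libraries and 26.0, 37.9 and 36.8 CPM at Day 8. Its difference was -0.90 ± 0.28 (edgeR, not called), and it was also -0.90 without saline replicate 1. For Fn1 the Day 8 difference was -0.98 ± 0.32 (edgeR, not called), and it was -0.54 without that library. Vcan, which codes for the versican core protein, had 113 and 54.3 CPM in saline, 51.8 and 58.9 CPM at Day 3, and 41.2, 51.8 and 40.8 CPM at Day 8. Its Day 8 difference from saline was -0.93 ± 0.36 (edgeR, not called), and it was -0.30 without saline replicate 1, the highest library. At Day 3 against saline 1 of the 37 was called higher, Spock3 (beside 1.99% of genes), and 3 were called lower, Serpine2, Fn1 and Bcan (beside 2.65%). Spock3 had 0.362 and 0.670 CPM in saline and 2.06 and 2.81 CPM at Day 3, and Bcan had 1.57 and 2.01 CPM in saline and under 0.21 CPM at Day 3, so that both were near the floor in a group. The Bcan call was lost without any one of the 4 libraries compared. Serpine2, an inhibitor of thrombin and plasminogen activators, had 202 and 184 CPM in saline, 58.3 and 66.9 CPM at Day 3, and 78.7, 159 and 60.4 CPM at Day 8. Both saline libraries were above all others, including saline replicate 2, and the Day 3 fall was 1.78 ± 0.43 on the log2 scale (limma, adjusted p = 0.618) and was still called without saline replicate 1 (-1.64). Fn1, fibronectin, had 396 and 232 CPM in saline and 165 and 158 CPM at Day 3, and it fell by 1.19 ± 0.33. Without saline replicate 1 its difference was -0.68 and not called. Between Day 3 and Day 8, 1 of the 37 was called higher (beside 2.2% of genes) and 1 lower (beside 2.34%). Spock2 rose by 1.52 ± 0.61 (limma, adjusted p = 0.695) and Spock3 fell by 2.05 ± 0.68 (adjusted p = 0.689) on the log2 scale, both testicans, secreted proteoglycans known to act on MMPs. The Spock2 call was lost without Day 8 replicate 2 or 3 or without either Day 3 library, and the rise was 1.98 without Day 8 replicate 1. The Spock3 call held without each Day 8 library (-1.89 to -2.17), and the gene was not tested without a Day 3 library. None of these genes had an adjusted p under 0.1.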

How the data were processed

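The authors prepared QuantSeq 3′ libraries of uterine tissue, used Bowtie2 for alignment and Bedtools to count reads, multiply aligned ones included, and normalized with edgeR. The submitters' processing notes list mm10 and hg19 with no role. The authors deposited raw read counts by gene symbol for 6 of the tables. For the table of Day 3 replicate 1 they deposited log2 values of normalized counts plus 1. After reversing the log2 step and dividing by 1.0545, 95.6% of 3661 low values were within 0.1 of a whole number. Because of this table, Day 8 against saline was tested on the 6 count libraries with the quasi-likelihood test of edgeR 4.0.16 (TMM, filterByExpr, 3 groups, 3 residual degrees of freedom), and the other comparisons by limma 3.58.1 (trend) on log2(value + 1) of all 7 libraries (4 residual degrees of freedom), scaled to a common total, filtered at 10 in at least 2 libraries and quantile-normalized. Such fold changes understate low genes. CPM values are TMM-scaled over 7 libraries. Standard errors for edgeR were derived from the F statistic and the log2 fold change. P-values were adjusted by Benjamini-Hochberg over all genes tested. The steps were tested on simulated data.

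Values are given in every library for the 4 TIMPs, each member called in any comparison, the highest member of each role class, and the 5 members over 5 CPM with the widest range within a group. Other members with values were added after these were seen. The members, gene lists and tests were chosen with earlier results of these data known. Groups and replicate numbers come from the labels. Deviations of same-numbered libraries from their group means correlated at -0.13 (saline and Day 8), -0.06 (saline and Day 3) and 0.01 (Day 3 and Day 8), so the numbers were not taken to pair libraries. Sequences are from RefSeq and gene positions from GENCODE on GRCm38. Alternatives used R 4.3.3 and DESeq2 1.42.0.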

Additional observations from a re-analysis of the deposited data

Results flagged for a closer look

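Adamts17 had all Day 3 libraries on one side of the saline mean and all Day 8 libraries on the other. It was the only such gene among the 33 members with a mean of at least 1 CPM. The share of all genes with this pattern was not counted, so it cannot be said whether the pattern is unusual. Its level was 1.21 and 0.957 CPM in saline, 0.826 and 0.729 CPM at Day 3, and 1.4, 2.84 and 3.94 CPM at Day 8. Relative to the saline mean on the log2(CPM + 1) scale, both Day 3 libraries were lower (mean -0.23) and all 3 Day 8 libraries were higher (mean 0.78), a difference of 1.01. The limma difference of Day 8 and Day 3 was 1.38 ± 0.61 (not called), and it was called with 5 alternatives, among them the fit without Day 8 replicate 1. Against saline, the fitted log2 fold change was -0.05 ± 0.67 at Day 3 (limma) and 1.31 ± 0.74 at Day 8 (edgeR), and neither was called. Both groups were set against the same saline libraries, and the Day 3 values correspond to few reads.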

How the results depend on the processing

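At Day 8 against saline, DESeq2 gave 49 genes at an adjusted p under 0.1. Limma on quantile-normalized values and a filter of at least 10 counts in every library each left 1 member called lower. With the replicate number as a block, 157 genes were called and 0 members were called higher, since Adamts1 lost its call (1.07), and at Day 8 against Day 3 the block left 418 genes and 1 member called higher, as Mmp15 was lost (0.91). Of the other members with values, the block removed the calls of Mmp11 at Day 8 (-0.98) and Mmp9 at Day 3 against saline (-1.12) and added Mmp12 at Day 8 (-2.77). At Day 3 against saline, library size scaling alone gave 1040 calls and 5 members lower and shifted the median of all genes to -0.26. Without a filter, 36 genes had an adjusted p under 0.1 and 1 member was lower, and edgeR with recovered counts called 5 members lower. At Day 8 against Day 3, no filter gave 27 genes at an adjusted p under 0.1 and 2 members lower, and a fit of the compared groups alone gave 3 genes and 2 members lower. The cause of these shifts was not tested.

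Leaving out 1 library at a time moved Day 8 against saline from 229 to 1527 genes called, 0 to 15 genes at an adjusted p under 0.1, 0 to 1 members higher, 1 to 10 lower, and medians of -0.43 to 0.37 for peptidases and -0.94 to -0.059 for TIMPs. For Day 3 against saline the ranges were 259 to 2828 genes called, 0 to 2358 genes and 0 to 10 members at an adjusted p under 0.1, 0 to 13 members lower, and medians of -0.99 to 0.040 and -1.37 to 0.014. For Day 8 against Day 3 they were 257 to 1639 genes, 0 to 468 at an adjusted p under 0.1, 1 to 4 members higher and 0 to 2 lower. The highest counts of members came without saline replicate 2 (10 and 13 lower) and without Day 8 replicate 1 (4 higher). A library left alone in its group was assumed to vary like the others. Groups of 2 and 3 libraries limit every value, and members near the floor could not show a change at this depth.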
